A study of Mus musculus with 17 samples.

Results

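The ETS factors are DNA-binding proteins that share one DNA-binding fold and read short sites built on the bases GGAA. Chromatin accessibility was described here at 6 of their genes: Spi1, which encodes PU.1; Spib, which encodes Spi-B; and Ets1, Fli1, Elf1 and Etv6. Every accessible region that the deposited table assigned to one of these genes, either because it lies in the gene or because the gene has the nearest transcription start, was taken. This gave 125 of the 66177 regions in the table: 2 for Spi1, 7 for Spib, 34 for Ets1, 20 for Elf1, 27 for Fli1 and 35 for Etv6. The rule that picks among the table's regions uses no measured value, but those regions are peaks called in these same libraries.

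PU.1 and Spi-B are close relatives that bind the same sites, often with IRF4 or IRF8 beside them, and B cells need them together. PU.1 is also required for myeloid cells, while Spi-B is largely a factor of mature B cells and plasmacytoid dendritic cells and is turned down as B cells become plasma cells. Ets1 keeps B cells from turning into antibody-secreting cells too early, Fli1 acts in megakaryocytes, endothelium and lymphocytes, Elf1 is broadly expressed in blood cells, and Etv6 is a transcriptional repressor best known from its fusions in leukemia.

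Cells were sorted from mice carrying floxed Dnmt3a and Dnmt3b alleles, the genes of the de novo DNA methyltransferases. C animals had the floxed alleles without Cre. KO animals also carried Cre and deleted both genes in the B lineage. The background was B6;129S4-Dnmt3atm3.1Enl Dnmt3btm5.1Enl/Mmnc in every group, and mice were 8 to 12 weeks old. Naive B cells (nB, B220+ Fas- GL7-) came from lymph nodes of male mice that were not immunized. Germinal center B cells (GCB, B220+ Fas+ GL7+) that bound phycoerythrin came from lymph nodes at day 30 after immunization with phycoerythrin in adjuvant, in pools of 2 mice. Each genotype had female and male GCB libraries, with a larger share of female libraries in KO. Bone marrow plasma cells (BMPC, CD138+) came from female mice at day 30. ATAC-seq, in which the Tn5 transposase cuts and tags open DNA, was run on 3000 to 5000 cells a library, and 16 libraries were analysed: 3 C nB, 2 KO nB, 2 C GCB, 4 KO GCB, 3 C BMPC and 2 KO BMPC. Another KO BMPC sample was not analysed here. With libraries of both sexes in GCB, sex also differed in part between GCB and either other cell type. BMPC differed from both B cell types in tissue, nB differed from GCB and BMPC in immunization, and nB differed from BMPC in sex. These cannot be told apart from cell type. Nor can fewer cells with an open region be told from less opening in each cell, since each library is a bulk measurement.

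Values are RPPM, that is, reads in a region per 1000000 reads in all regions of that library. Reads in regions numbered 4104875 to 6079018 in nB, 907959 to 2280954 in GCB and 5357687 to 8232313 in BMPC libraries, so that 3 reads were worth 0.364 to 3.30 RPPM and the GCB values are the least precise. A region was called when limma's moderated test on log2(RPPM + 1), fitted to all regions and all 16 libraries, gave a Benjamini-Hochberg adjusted p of at most 0.01 and a difference of at least 2-fold. Log2 fold changes are on that scale, which understates changes of low regions, and carry ± SE. Regions are named by the distance of their centre from a start of the gene in the mm9 genome, minus meaning upstream of that start. Ets1 and Elf1 each have another region annotated as promoter, at -59.9 and +34.5 kb. Minus regions of Ets1 can therefore lie inside the gene. A gene's annotated intron need not belong to that gene. Accessibility does not show whether Dnmt3a and Dnmt3b were deleted, so the KO label was not checked here. The sorts were checked on markers. The start of Fcer2a, which encodes CD23, held 36.8 to 49.2 RPPM in nB and at most 2.34 in BMPC. Prdm1, the gene of the plasma cell factor Blimp-1, held 64.8 to 70.4 RPPM at its start in BMPC and 39.5 to 52.9 in nB, and the regions nearest the Sdc1 and Xbp1 starts were likewise higher in BMPC without overlap. The start of Irf4, the remaining plasma cell marker, went the other way, with 38.9 to 46.9 RPPM in BMPC and 55.1 to 61.2 in nB. The starts of Fas, Bcl6 and S1pr2, markers of germinal center B cells, were not highest in GCB. That of Fas, for example, held 16.7 to 21.6 RPPM in GCB, 13.6 to 18.5 in nB and 29.4 to 32.6 in BMPC.

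The sequences of 5 regions with large differences between C cell types are given as the central 200 bases of each region, read 5′ to 3′ on the plus strand of mm9, with GGAA or its reverse complement TTCC, the ETS core, in capitals. Spib -4.4 kb is shown as the Spib region with the largest loss from nB to BMPC, and Ets1 -9.9 kb as the Ets1 region with the largest loss from GCB to BMPC. The 3 Etv6 regions are shown because each peaked in a different way: +106.0 kb in GCB and, less, in BMPC, +112.4 kb in BMPC, and +253.2 kb in GCB with almost none in BMPC.
Spib -4.4 kb, chr7:51791754-51791953: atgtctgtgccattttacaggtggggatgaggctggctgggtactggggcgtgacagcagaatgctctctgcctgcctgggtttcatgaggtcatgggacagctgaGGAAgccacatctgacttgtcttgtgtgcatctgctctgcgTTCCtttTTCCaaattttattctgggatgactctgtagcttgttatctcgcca
Ets1 -9.9 kb, chr9:32493622-32493821: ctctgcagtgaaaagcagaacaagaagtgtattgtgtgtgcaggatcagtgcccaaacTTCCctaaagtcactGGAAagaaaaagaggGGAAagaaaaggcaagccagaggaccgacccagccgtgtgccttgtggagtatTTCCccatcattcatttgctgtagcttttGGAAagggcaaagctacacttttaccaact
Etv6 +106.0 kb, chr6:134091647-134091846: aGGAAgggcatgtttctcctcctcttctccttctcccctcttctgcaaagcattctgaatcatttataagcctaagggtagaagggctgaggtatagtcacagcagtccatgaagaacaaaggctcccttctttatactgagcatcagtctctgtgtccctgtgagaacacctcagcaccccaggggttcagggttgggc
Etv6 +112.4 kb, chr6:134098060-134098259: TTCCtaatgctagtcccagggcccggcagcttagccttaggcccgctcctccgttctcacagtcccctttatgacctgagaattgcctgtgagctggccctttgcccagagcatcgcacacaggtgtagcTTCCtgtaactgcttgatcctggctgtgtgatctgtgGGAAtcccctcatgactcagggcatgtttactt
Etv6 +253.2 kb, chr6:134238776-134238975: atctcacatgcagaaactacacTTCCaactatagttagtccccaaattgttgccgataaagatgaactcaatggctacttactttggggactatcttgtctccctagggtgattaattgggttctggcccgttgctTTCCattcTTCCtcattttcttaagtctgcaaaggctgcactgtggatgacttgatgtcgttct

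Longer sites were rarer. The letters AGAGGAAGTG, the consensus for PU.1, which itself holds GGAA, were in 3 of the 125 regions (2.4%), against 2.04% of the 65893 regions that could be searched, counting both strands. The Spi-B consensus was in 2 regions (1.6%, against 0.724%). These 5 matches are shown with 10 bases on either side, the match in capitals, on the plus strand of mm9.
Etv6 +137.8 kb, PU.1, chr6:134123438-134123467: ggcagctggaAGAGGAAGTGgaacaccctg
Fli1 +33.9 kb, PU.1, chr9:32315367-32315396: aactggacagAGAGGAAGTGgctcctgggt
Fli1 -29.4 kb, PU.1, chr9:32378448-32378477: acactccagcAGAGGAAGTGgcggcactct
Etv6 +106.0 kb, Spi-B, chr6:134091473-134091504: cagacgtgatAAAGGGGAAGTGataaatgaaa
Etv6 +16.4 kb, Spi-B, chr6:134002071-134002102: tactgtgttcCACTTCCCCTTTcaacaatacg
The bare GGAA core was in 98.4% of the ETS gene regions and 97.8% of all regions, so its presence distinguishes little. The longer GGAAGT was in 45.6% of the ETS gene regions and 43.2% of all regions. Its share was 54.3% among Etv6 regions and 20% among Elf1 regions. ACAGGAAGTG (ETS1) was in 0.8% against 1.65%, the Fli1 consensus in 3.2% against 5.58%, and ACTGAAACCA (IRF4) in 0.8% against 0.587%. CGGAAGTGAAAC, the joint PU.1-IRF site, matched none of the 125 regions and 0.0197% of all regions. These shares are descriptions of the letters in these windows.

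Summed over its regions, Spi1 was the most even of the 6 genes and Etv6 the least. Spi1 summed to 51.2, 48.8 and 47.1 RPPM in C nB, 47.1 and 49.7 in C GCB and 42.3, 45.2 and 47.2 in C BMPC, so the 3 cell types overlapped. Spib summed to 135, 151 and 130.3, 143 and 167 and 63.2, 62.8 and 62.9 RPPM in the same groups. Etv6 summed to 210.2, 245 and 232, 574 and 530.3 and 599, 623 and 597 RPPM. The sum of Spib in BMPC and that of Etv6 in nB thus lay far from the other cell types, with no overlap. Over both genotypes, Ets1 summed to 709 to 744 RPPM in nB, 512 to 610.4 in GCB and 486 to 555 in BMPC. Fli1 summed to 328 to 378, 263 to 299 and 379 to 403 RPPM in the same order, and Elf1 to 285 to 321, 238 to 289 and 342 to 380.4. Both were thus lowest in GCB and highest in BMPC, although nB and GCB overlapped for Elf1. Per kb of region, which allows genes to be compared, mean levels in nB ran from 42.5 RPPM for Spib through 33.1 for Spi1, 33.0 for Ets1, 28.9 for Elf1 and 25.9 for Fli1 to 10.8 for Etv6. In BMPC the order was Elf1 at 33.8 RPPM per kb, Etv6 at 29.0, Spi1 and Fli1 both at 28.8, Ets1 at 23.5 and Spib at 20.9.

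**Figure D1:**
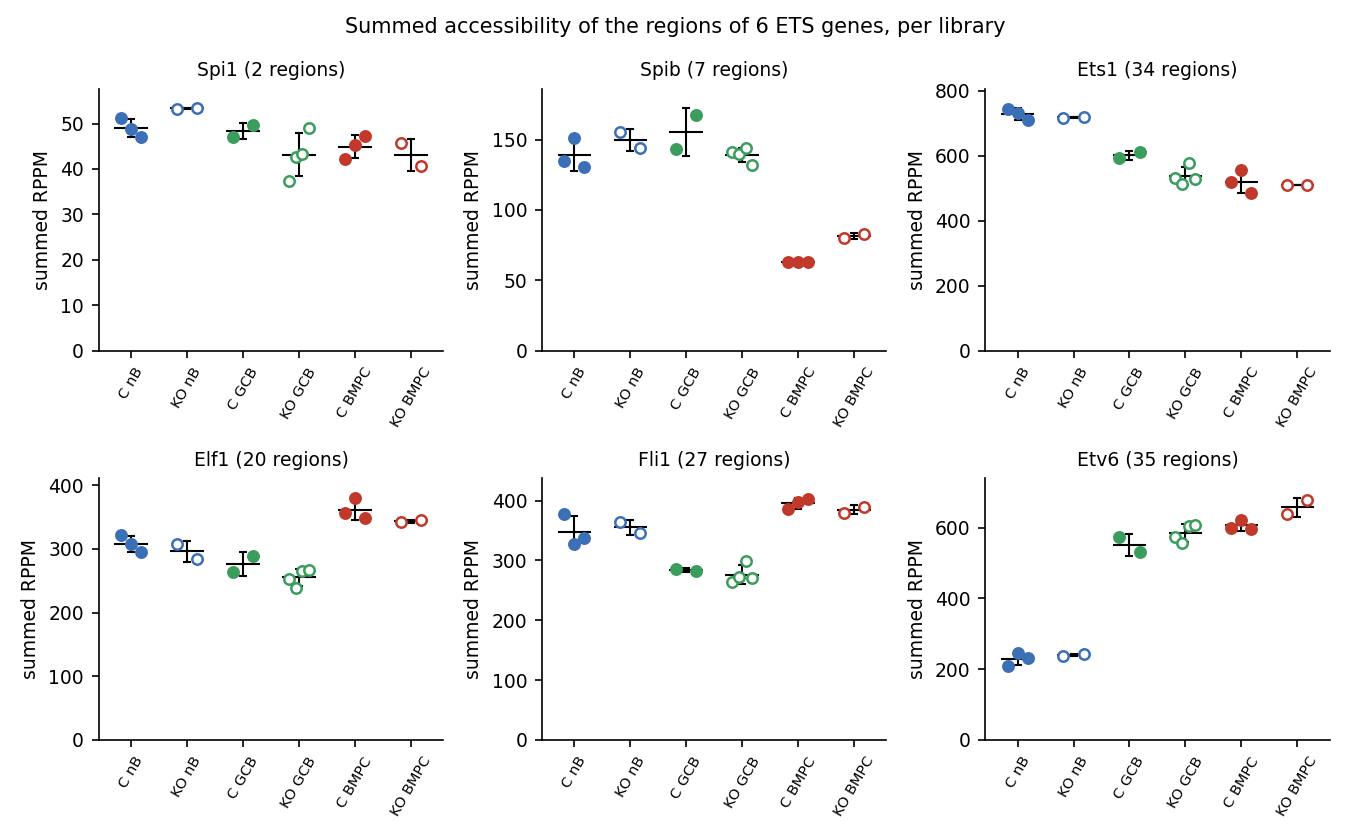
RPPM summed over all regions of each gene (y axis) in each of the 16 libraries, by group (x axis); filled points are C and open points KO libraries, bars are group means and whiskers SD. Spib summed to 62.8 to 83.1 RPPM in BMPC and at least 130.3 in the other cells, and Etv6 to 210.2 to 245 RPPM in nB and at least 530.3 in the others.

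Measured against all regions, the ETS genes had more gains from nB than the table at large, and Etv6 held most of them. In C GCB minus C nB, 26 of 125 regions were called higher and 6 lower (20.8% and 4.8%), against 14.2% and 8.47% of all regions. In C BMPC minus C nB, 34 were called higher and 22 lower (27.2% and 17.6%), against 18% and 20.1%. In C BMPC minus C GCB, 16 were called higher and 24 lower (12.8% and 19.2%), against 11.3% and 19.1%. Without the 35 Etv6 regions, 3 of 90 were called higher in GCB than nB (3.33%) and 13 in BMPC than nB (14.4%), both below the share over all regions. The median log2 fold change of all 125 regions was 0.08 in C GCB minus C nB and 0.20 in C BMPC minus C nB, and over all regions it was 0.05 and 0.03.

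At Spi1 neither region was called in any comparison. Its promoter region at +0.1 kb (chr2:90936490-90937559, over the first exon and intron) held 40.7, 39 and 38 RPPM in C nB, 37.4 and 43.1 in C GCB and 33.4, 35.2 and 37.8 in C BMPC. Its intronic region at +4.8 kb (chr2:90941518-90941980) held 10.5, 9.8 and 9.12 RPPM in C nB, 9.68 and 6.56 in C GCB and 8.84, 10.0 and 9.34 in C BMPC. C libraries of the 3 cell types overlapped at +4.8 kb. At the promoter C BMPC lay below C nB and overlapped C GCB. The log2 fold change of the promoter was 0.03 ± 0.16 (adjusted p = 0.883) in GCB minus nB and log2 -0.14 ± 0.14 (adjusted p = 0.415) in BMPC minus nB. KO libraries at the promoter held 42.4 and 42.9 RPPM in KO nB, 25.3, 36.9, 35.5 and 41.2 in KO GCB and 36 and 30.6 in KO BMPC. None of the 2 regions had an unadjusted p under 0.05 in the 3 comparisons of C cell types, and edgeR and DESeq2 on recovered reads called 0 as well. A difference under 2-fold at these 2 regions was not detectable as a call with these limits.

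Spib lost accessibility between nB and plasma cells at 5 of its 7 regions (71.4%, against 20.1% of all regions), all within 6.4 kb of its start, while none was called between GCB and nB. The region at -4.4 kb (chr7:51791649-51792057), which lies in an intron of the neighbouring gene Pold1, held 20.5, 21.9 and 15.4 RPPM in C nB, 19.8 and 24.8 in C GCB and 0.65, 0.182 and 0.311 in C BMPC. Naive and germinal center libraries overlapped, and the 3 plasma cell libraries held 8 reads between them. The log2 fold change was -3.87 ± 0.22 (adjusted p = 3.05e-14) in BMPC minus nB and log2 -4.08 ± 0.25 (adjusted p = 2.71e-13) in BMPC minus GCB. Spib +6.4 kb (chr7:51780800-51781216), annotated as promoter sequence, held 16.6, 19 and 14.1 RPPM in C nB, 11.4 and 12.2 in C GCB and 3.12, 1.46 and 2.49 in C BMPC. It also separated plasma cells from all others, with log2 -2.41 ± 0.23 (adjusted p = 5.62e-10) in BMPC minus nB.

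Around the Spib start the losses were smaller. Spib -2.4 kb (chr7:51789428-51790182), its strongest region, held 45.1, 45.6 and 45.4 RPPM in C nB, 36.1 and 48.2 in C GCB and 20.0, 18.8 and 19.5 in C BMPC, a log2 fold change of -1.18 ± 0.12 (adjusted p = 3.57e-09) in BMPC minus nB. Spib -1.1 kb (chr7:51788450-51788730) held 10.2, 17 and 13 RPPM in C nB, 15 and 16.4 in C GCB and 2.21, 3.83 and 2.65 in C BMPC, with log2 -1.88 ± 0.23 (adjusted p = 5.82e-08). Spib +0.6 kb (chr7:51786702-51786937), in an intron of Spib, held 13.2, 17.1 and 12.3 RPPM in C nB, 17.6 and 17.3 in C GCB and 5.33, 3.65 and 6.7 in C BMPC, with log2 -1.30 ± 0.20 (adjusted p = 3.48e-06). At all 3 regions every plasma cell value lay below every B cell value. Toward the 3′ side, where Mybpc2 has the nearest start, the picture differed at +4.1 and +5.4 kb. Spib +6.4 kb, further in that direction, was among the losses given above. Spib +4.1 kb (chr7:51782846-51783822) held 19.2, 20.2 and 18.4 RPPM in C nB, 30.3 and 32.3 in C GCB and 25.5, 27.4 and 24 in C BMPC and was not called, with log2 0.67 ± 0.17 (adjusted p = 0.00238) in GCB minus nB and log2 0.39 ± 0.15 (adjusted p = 0.0324) in BMPC minus nB. Spib +5.4 kb (chr7:51781917-51782209) held 10.2, 10.2 and 11.5 RPPM in C nB, 13.2 and 15.9 in C GCB and 6.37, 7.48 and 7.32 in C BMPC and was not called either, with log2 -0.53 ± 0.20 (adjusted p = 0.0235) in BMPC minus nB. In C GCB minus C nB, 0 of 7 Spib regions were called by limma, edgeR or DESeq2, with 1 at an unadjusted p under 0.05.

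In KO mice Spib fell at 3 of its 7 regions between nB and BMPC (42.9%, against 16.9% of all regions). Spib -4.4 kb in KO libraries held 21.9 and 19.7 RPPM in KO nB, 18.7, 19.1, 23.2 and 21 in KO GCB and 0.607 and 1.31 in KO BMPC, with log2 -3.50 ± 0.27 (adjusted p = 3.14e-11) in KO BMPC minus KO nB. Spib +6.4 kb in KO held 14.8 and 15 RPPM in KO nB, 13.2, 8.91, 9.65 and 11.2 in KO GCB and 5.1 and 3.73 in KO BMPC, with log2 -1.56 ± 0.28 (adjusted p = 3.14e-05). Spib +0.6 kb in KO held 18.1 and 15.5 RPPM in KO nB, 14.3, 14, 13.2 and 13.3 in KO GCB and 7.65 and 5.97 in KO BMPC, with log2 -1.19 ± 0.25 (adjusted p = 0.000222). The KO plasma cell libraries were below every KO B cell library at each of these. Spib -2.4 kb in KO held 57.2 and 55.7 RPPM in KO nB, 45.2, 45.8, 48.7 and 41.2 in KO GCB and 27.2 and 30.2 in KO BMPC, with log2 -0.95 ± 0.15 (adjusted p = 6.05e-06), which is short of 2-fold. Spib -1.1 kb in KO held 11 and 11.4 RPPM in KO nB, 18.7, 12.7, 12.7 and 15.4 in KO GCB and 5.59 and 8.59 in KO BMPC, with log2 -0.62 ± 0.28 (adjusted p = 0.066). At both, KO BMPC lay below KO nB without passing the limits. The KO minus C differences themselves are given with the genotype comparison.

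**Figure D2:**
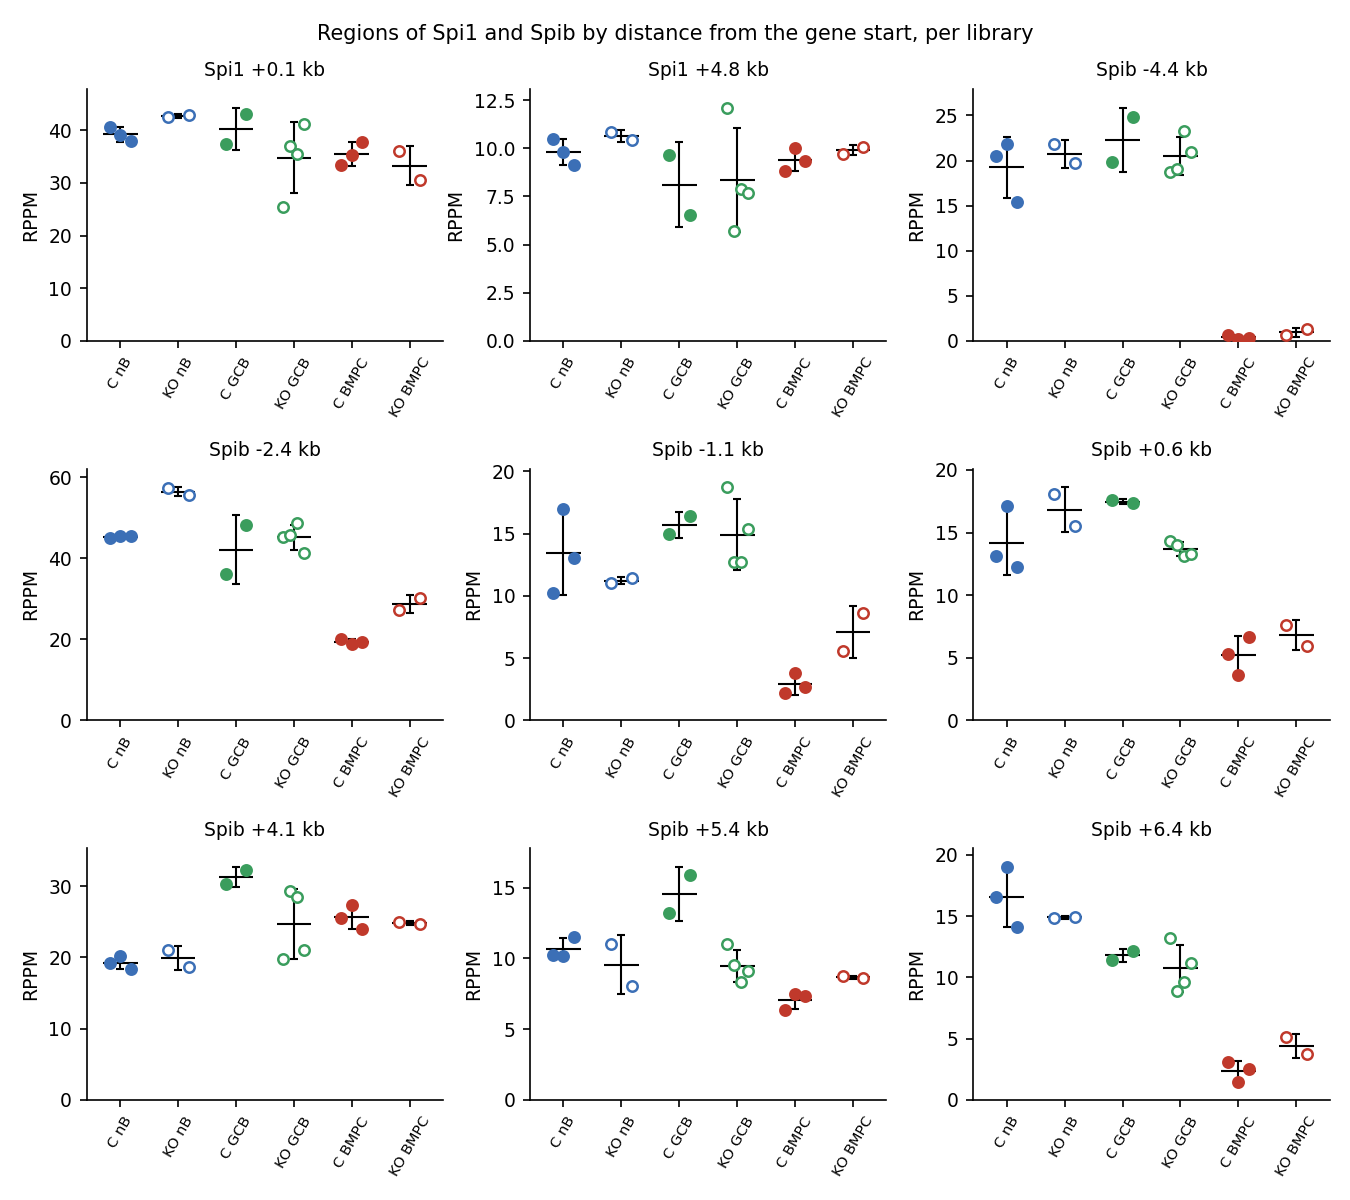
RPPM of the 2 Spi1 and 7 Spib regions (one panel each, y axis) in each library by group (x axis); filled points are C and open points KO libraries. At Spib -4.4 kb the BMPC libraries hold 0.182 to 1.31 RPPM and every other library at least 15.4, whereas the Spi1 promoter stays between 25.3 and 43.1 RPPM in all 16.

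Ets1 lost accessibility at 11 of its 34 regions in C plasma cells relative to naive B cells and gained it at 3, with 10 of the 11 losses inside introns and all 11 between -86.7 and +44.1 kb. A loss was called at 32.4% of Ets1 regions and a gain at 8.82%, against 20.1% and 18% over all regions. Ets1 -9.9 kb (chr9:32493123-32494320, intronic) held 32.6, 36.2 and 32.8 RPPM in C nB, 29.9 and 25.8 in C GCB and 3.64, 2.92 and 2.18 in C BMPC. B cell libraries of both kinds were high and every plasma cell library was low, with a log2 fold change of -3.17 ± 0.18 (adjusted p = 2.69e-14) in BMPC minus nB, against log2 -0.28 ± 0.20 (adjusted p = 0.278) in GCB minus nB. Ets1 -45.1 kb (chr9:32458270-32458751, intronic) held 20.5, 30.1 and 24.2 RPPM in C nB, 12.8 and 16.4 in C GCB and 1.3, 1.82 and 1.25 in C BMPC, with log2 -3.39 ± 0.38 (adjusted p = 1.18e-08) in BMPC minus nB. GCB lay between nB and BMPC there without overlap, and GCB minus nB was not called (log2 -0.73 ± 0.42, adjusted p = 0.165). Ets1 -86.7 kb (chr9:32416433-32417334), outside genes, held 34.6, 28.6 and 31.8 RPPM in C nB, 36.9 and 34.2 in C GCB and 8.97, 10.2 and 10.1 in C BMPC, with log2 -1.60 ± 0.15 (adjusted p = 9.98e-10) in BMPC minus nB.

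A different order was seen at Ets1 +14.3 kb (chr9:32517427-32518387, intronic), which held 41.2, 31.5 and 30.5 RPPM in C nB, 11.4 and 7.03 in C GCB and 6.11, 6.57 and 4.83 in C BMPC. It was already low in GCB, and the log2 fold change was -1.81 ± 0.24 (adjusted p = 6.51e-07) in GCB minus nB and log2 -2.37 ± 0.21 (adjusted p = 2.3e-10) in BMPC minus nB. The regions that gained were weaker. Ets1 -34.3 kb (chr9:32469026-32469649, intronic) held 2.19, 2.64 and 2.05 RPPM in C nB, 11 and 12.6 in C GCB and 4.42, 9.31 and 6.85 in C BMPC, highest in GCB, with log2 1.96 ± 0.31 (adjusted p = 1.17e-05) in GCB minus nB and log2 1.21 ± 0.28 (adjusted p = 0.000545) in BMPC minus nB; without C BMPC replicate 2 the latter was 0.99 and no longer called. Ets1 +32.6 kb (chr9:32536082-32536312, over an exon) held 1.46, 0.754 and 1.49 RPPM in C nB, 1.32 and 0 in C GCB and 4.68, 6.75 and 4.05 in C BMPC, a gain in BMPC over nB of log2 1.46 ± 0.33 (adjusted p = 0.000426). Every plasma cell library was above every B cell library there, at a low level.

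Of the 2 Ets1 regions annotated as promoter, the one at -59.9 kb was not called between C cell types. The other, at -0.1 kb, was lower in GCB than in either other cell type. At -0.1 kb (chr9:32503128-32503997) it held 64.3, 63.1 and 57.7 RPPM in C nB, 33 and 35.6 in C GCB and 54.4, 53.1 and 57.9 in C BMPC. Its KO libraries held 63.8 and 71 RPPM in KO nB, 27.5, 26.7, 33.8 and 39.8 in KO GCB and 54.1 and 55.4 in KO BMPC. GCB values were below all others in both genotypes. The C difference in GCB minus nB was log2 -0.83 ± 0.14 (adjusted p = 2.76e-05), short of the 2-fold limit. The KO difference was log2 -1.07 ± 0.13 (adjusted p = 2.45e-07), which was called, but it was -0.99 without KO nB replicate 2 or without KO GCB replicate F2 and -0.80 after quantile normalization. In C BMPC minus C nB it was log2 -0.16 ± 0.13 (adjusted p = 0.295). The Ets1 region with the most signal per kb, at -78.5 kb (chr9:32424846-32425459), held 42.9, 43.3 and 45.2 RPPM in C nB, 33.4 and 40.8 in C GCB and 33, 38.1 and 34.9 in C BMPC and was not called.

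Fli1, the neighbour of Ets1 on chromosome 9, showed the same low start in GCB, with both gains and losses elsewhere. The region at its start (chr9:32348689-32349291) held 28.5, 21.7 and 25.3 RPPM in C nB, 15.8 and 12.2 in C GCB and 18.2, 20.8 and 21.2 in C BMPC. Its KO libraries held 28.1 and 23.4 RPPM in KO nB, 11, 8.27, 12.7 and 6.99 in KO GCB and 18 and 17.7 in KO BMPC. GCB was again the lowest in both genotypes, with log2 -0.80 ± 0.21 (adjusted p = 0.00303) in C GCB minus C nB and log2 -1.34 ± 0.20 (adjusted p = 3.88e-06) in KO GCB minus KO nB, only the second of which was called. Whether those differences differ by genotype was tested as the interaction, log2 -0.54 ± 0.29 (adjusted p = 0.833).

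In C BMPC minus C nB, 6 of 27 Fli1 regions were called higher and 3 lower (22.2% and 11.1%), against 18% and 20.1% of all regions, so the share of gains was near that of the table at large. Fli1 +5.8 kb (chr9:32342951-32343390, intronic) held 4.39, 2.07 and 1.86 RPPM in C nB, 2.2 and 3.75 in C GCB and 12.5, 14.2 and 12.5 in C BMPC. All plasma cell libraries were well above the B cell libraries, with log2 1.96 ± 0.26 (adjusted p = 3.84e-07) in BMPC minus nB. Fli1 -29.4 kb (chr9:32378099-32378686), outside genes and one of the regions with the PU.1 letters shown above, held 11, 7.16 and 8.75 RPPM in C nB, 3.96 and 4.22 in C GCB and 1.82, 1.64 and 0.779 in C BMPC, with log2 -2.06 ± 0.28 (adjusted p = 5.09e-07). Its C levels stepped from nB through GCB to BMPC without overlap. Fli1 +47.6 kb (chr9:32301168-32301539, intronic) held 7.55, 7.35 and 8.37 RPPM in C nB, 10.1 and 9.84 in C GCB and 2.47, 2.37 and 2.8 in C BMPC, low in BMPC only, with log2 -1.30 ± 0.25 (adjusted p = 6.41e-05). Between GCB and nB, 2 Fli1 regions were called, both lower (7.41%, against 8.47% of all regions). Fli1 -21.3 kb (chr9:32369927-32370555) held 22.9, 20.0 and 19.4 RPPM in C nB, 2.2 and 7.49 in C GCB and 11.7, 11.5 and 9.19 in C BMPC, with log2 -2.06 ± 0.29 (adjusted p = 2.21e-06) in GCB minus nB. Plasma cells stood between the other cell types there, and the difference from nB was log2 -0.89 ± 0.26 (adjusted p = 0.00501). The Fli1 region with the most signal per kb, +37.1 kb (chr9:32311754-32311966), held 10.5, 10.4 and 9.31 RPPM in C nB, 7.92 and 7.96 in C GCB and 14.8, 15.3 and 17.4 in C BMPC and was not called in BMPC minus nB (log2 0.61 ± 0.24, adjusted p = 0.0315).

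At Elf1, 4 of 20 regions were called higher and 1 lower in C BMPC minus C nB (20% and 5%), against 18% and 20.1% of all regions, so the share of gains was again near that of the table at large. Its start region at +0.2 kb (chr14:79880475-79881940), which the table shares with the neighbouring gene Wbp4, held 106, 97.8 and 106 RPPM in C nB, 64.2 and 77.3 in C GCB and 116, 115 and 118 in C BMPC. GCB was lowest, with log2 -0.54 ± 0.11 (adjusted p = 0.000203) in GCB minus nB, short of 2-fold, and BMPC and nB differed by log2 0.17 ± 0.10 (adjusted p = 0.133). Elf1 +51.0 kb (chr14:79931649-79932326, intronic) held 6.58, 7.72 and 6.14 RPPM in C nB, 18 and 14.5 in C GCB and 24.1, 24.3 and 22.7 in C BMPC. It rose in both later cell types, by log2 1.14 ± 0.23 (adjusted p = 0.000273) in GCB minus nB and log2 1.66 ± 0.21 (adjusted p = 1.17e-07) in BMPC minus nB; the former was no longer called without C GCB replicate F2 (0.995, adjusted p = 0.0120 by limma). Elf1 +67.3 kb (chr14:79948073-79948584, intronic) held 3.41, 2.26 and 1.67 RPPM in C nB, 2.64 and 2.34 in C GCB and 11.8, 16.1 and 12.6 in C BMPC, a gain in plasma cells over nB of log2 2.09 ± 0.27 (adjusted p = 2.23e-07).

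At the largest Elf1 losses the lower group held few reads, while C nB held 120 at +30.5 kb and 116 at +71.8 kb. Elf1 +30.5 kb (chr14:79911390-79911665, intronic) held 7.8, 9.23 and 7.26 RPPM in C nB, 5.72 and 5.62 in C GCB and 0.39, 0.547 and 0 in C BMPC; the 3 C BMPC libraries had 6 reads in all, and the log2 fold change was -2.81 ± 0.31 (adjusted p = 1.18e-08) in BMPC minus nB. Elf1 +71.8 kb (chr14:79952511-79953030), nearest to the start of Sugt1, held 6.58, 7.91 and 8.75 RPPM in C nB, 0.88 and 2.81 in C GCB and 12.9, 8.94 and 7.63 in C BMPC, with 8 reads in both C GCB libraries and log2 -1.70 ± 0.31 (adjusted p = 6.2e-05) in GCB minus nB. In KO mice that difference was not called: KO GCB held 4.41, 3.82, 6.14 and 3.5 RPPM against 8.06 and 5.51 in KO nB, with log2 -0.51 ± 0.29 (adjusted p = 0.146). The interaction, which tests whether the difference itself changed with genotype, was log2 1.19 ± 0.42 (adjusted p = 0.733).

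**Figure D3:**
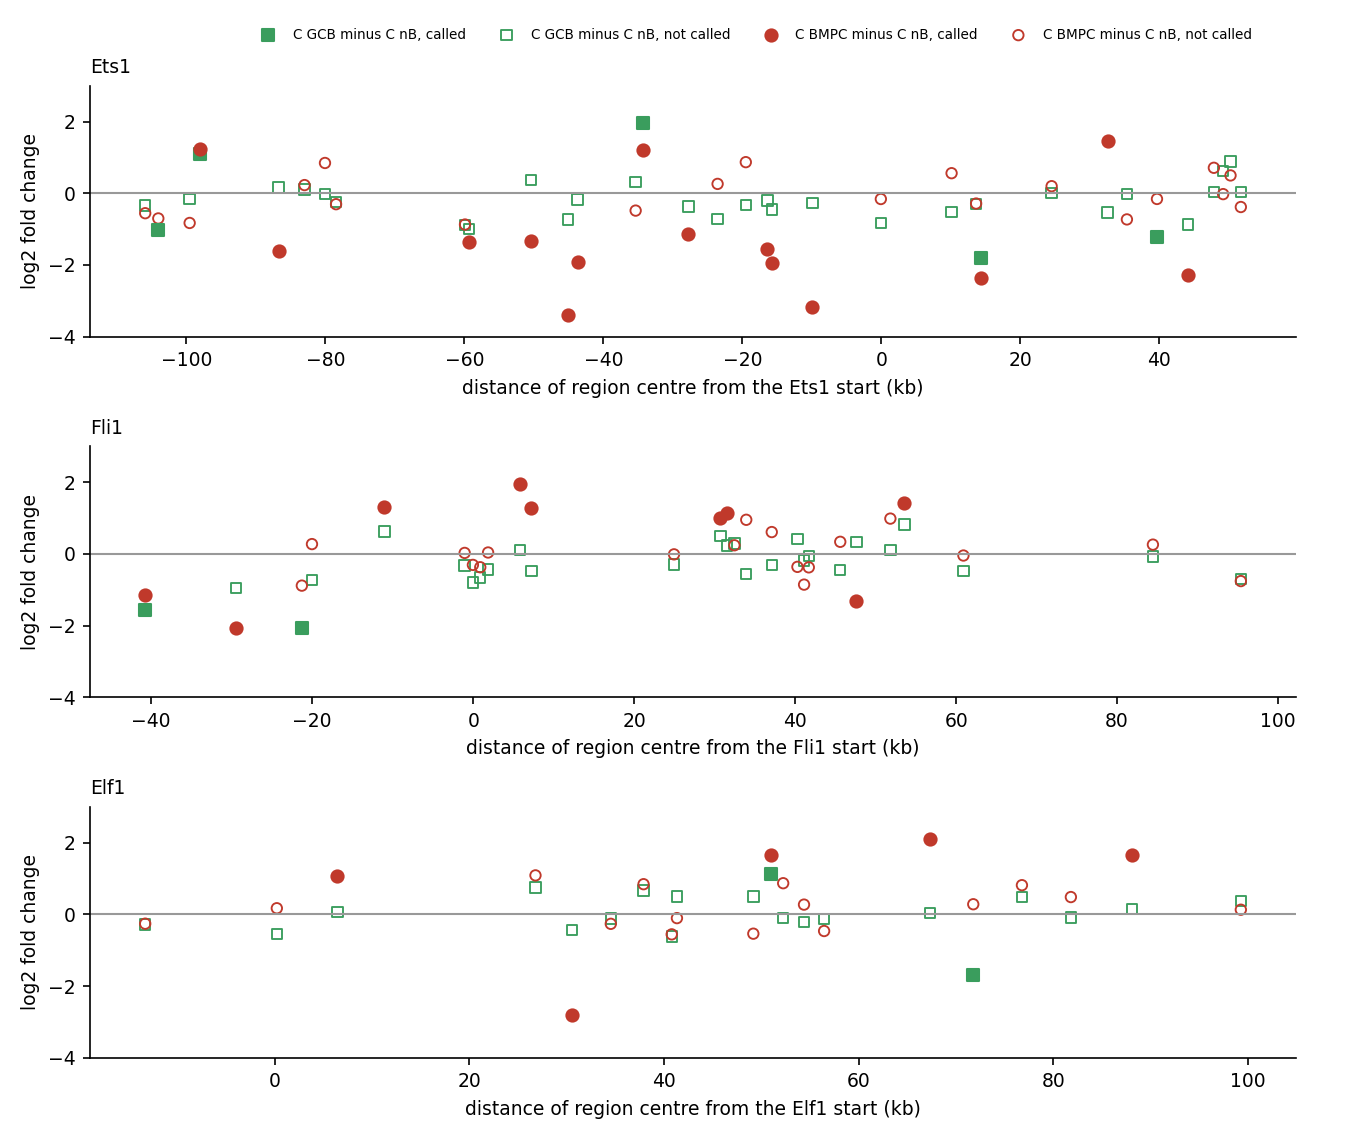
Log2 fold change of each region of Ets1, Fli1 and Elf1 (y axis) by its distance in kb from the gene's start (x axis), for C GCB minus C nB (squares) and C BMPC minus C nB (circles); filled symbols were called. The plasma cell losses of Ets1 reach -3.39 at -45.1 kb, while Elf1 has 4 gains and 1 loss in the same comparison.

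Etv6 opened widely in both later cell types. In C GCB minus C nB, 23 of its 35 regions were called, all of them higher, from -50.0 to +253.2 kb, with log2 fold changes of 1.18 to 3.40; 19 of the 23 were intronic. In C BMPC minus C nB, 21 were called higher and 2 lower, and the gains lay between +24.0 and +246.7 kb with log2 fold changes of 1.03 to 4.27. The share called higher was 65.7% and 60.0%, against 14.2% and 18% over all regions. The median log2 fold change of the 35 regions was 1.45 in GCB and 1.65 in BMPC. Since regions are peaks of these libraries, one closed in nB was listed only if open in another cell type. At +110.2, +174.4, +231.1 and +244.1 kb, all 3 C nB libraries held at most 3 reads.

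The gains had different peaks. Etv6 +106.0 kb (chr6:134091268-134092225, intronic, with the Spi-B letters shown above) held 2.92, 5.65 and 4.84 RPPM in C nB, 58.1 and 52.5 in C GCB and 28.1, 29.4 and 28.7 in C BMPC. It rose most in GCB, by log2 3.40 ± 0.20 (adjusted p = 2.56e-13) over nB, and BMPC minus GCB was log2 -0.92 ± 0.20 (adjusted p = 0.000298), short of 2-fold. Etv6 +112.4 kb (chr6:134097748-134098570, intronic) held 2.44, 1.13 and 2.05 RPPM in C nB, 14.1 and 13.1 in C GCB and 52, 55.8 and 52 in C BMPC. Its order was nB, GCB, BMPC with no overlap, with log2 2.37 ± 0.24 (adjusted p = 1.17e-08) in GCB minus nB, log2 4.27 ± 0.22 (adjusted p = 3.63e-15) in BMPC minus nB and log2 1.90 ± 0.24 (adjusted p = 2.82e-07) in BMPC minus GCB. Etv6 +172.3 kb (chr6:134157572-134158432, intronic) held 2.68, 3.58 and 3.16 RPPM in C nB, 8.8 and 7.96 in C GCB and 38.9, 43.4 and 43.1 in C BMPC, in the same order, with log2 1.18 ± 0.20 (adjusted p = 2.38e-05) and log2 3.37 ± 0.18 (adjusted p = 6.43e-15) over nB. Etv6 +253.2 kb (chr6:134238547-134239204), outside genes and nearer to the start of Bcl2l14, held 1.46, 1.7 and 1.86 RPPM in C nB, 24.6 and 20.1 in C GCB and 1.3, 0.547 and 0.779 in C BMPC. That region was open in GCB and near the level of a few reads in BMPC, with log2 3.13 ± 0.32 (adjusted p = 8.44e-09) in GCB minus nB and log2 -3.65 ± 0.32 (adjusted p = 2.49e-10) in BMPC minus GCB.

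KO libraries had the same orders. Etv6 +106.0 kb in KO held 2.96 and 3.35 RPPM in KO nB, 47.4, 50.3, 61.8 and 64.3 in KO GCB and 29 and 33.4 in KO BMPC. Etv6 +112.4 kb in KO held 0.987 and 1.97 RPPM in KO nB, 22, 12.7, 13.6 and 13.3 in KO GCB and 54.7 and 58.4 in KO BMPC. Etv6 +253.2 kb in KO held 1.32 and 1.77 RPPM in KO nB, 18.7, 19.1, 22.4 and 11.2 in KO GCB and 0.364 and 0.747 in KO BMPC. At each, the cell types separated as in C, and the log2 fold changes from KO nB were 3.77, 2.72 and 2.85 in KO GCB and 2.95, 4.57 and -0.71 in KO BMPC. The promoter of Etv6 was not called. At -0.2 kb (chr6:133984836-133986305) it held 76, 75.5 and 75 RPPM in C nB, 67.3 and 70.7 in C GCB and 104, 109 and 115 in C BMPC, with log2 -0.13 ± 0.12 (adjusted p = 0.414) in GCB minus nB and log2 0.53 ± 0.11 (adjusted p = 0.00017) in BMPC minus nB. It was already strong in naive B cells, and plasma cells were higher by less than 2-fold. One of the 2 losses in plasma cells, Etv6 -14.7 kb (chr6:133970707-133971347), held 17.3, 25.1 and 17.5 RPPM in C nB, 17.2 and 11.7 in C GCB and 6.11, 4.93 and 4.67 in C BMPC, with log2 -1.73 ± 0.23 (adjusted p = 2.16e-07) in BMPC minus nB.

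**Figure D4:**
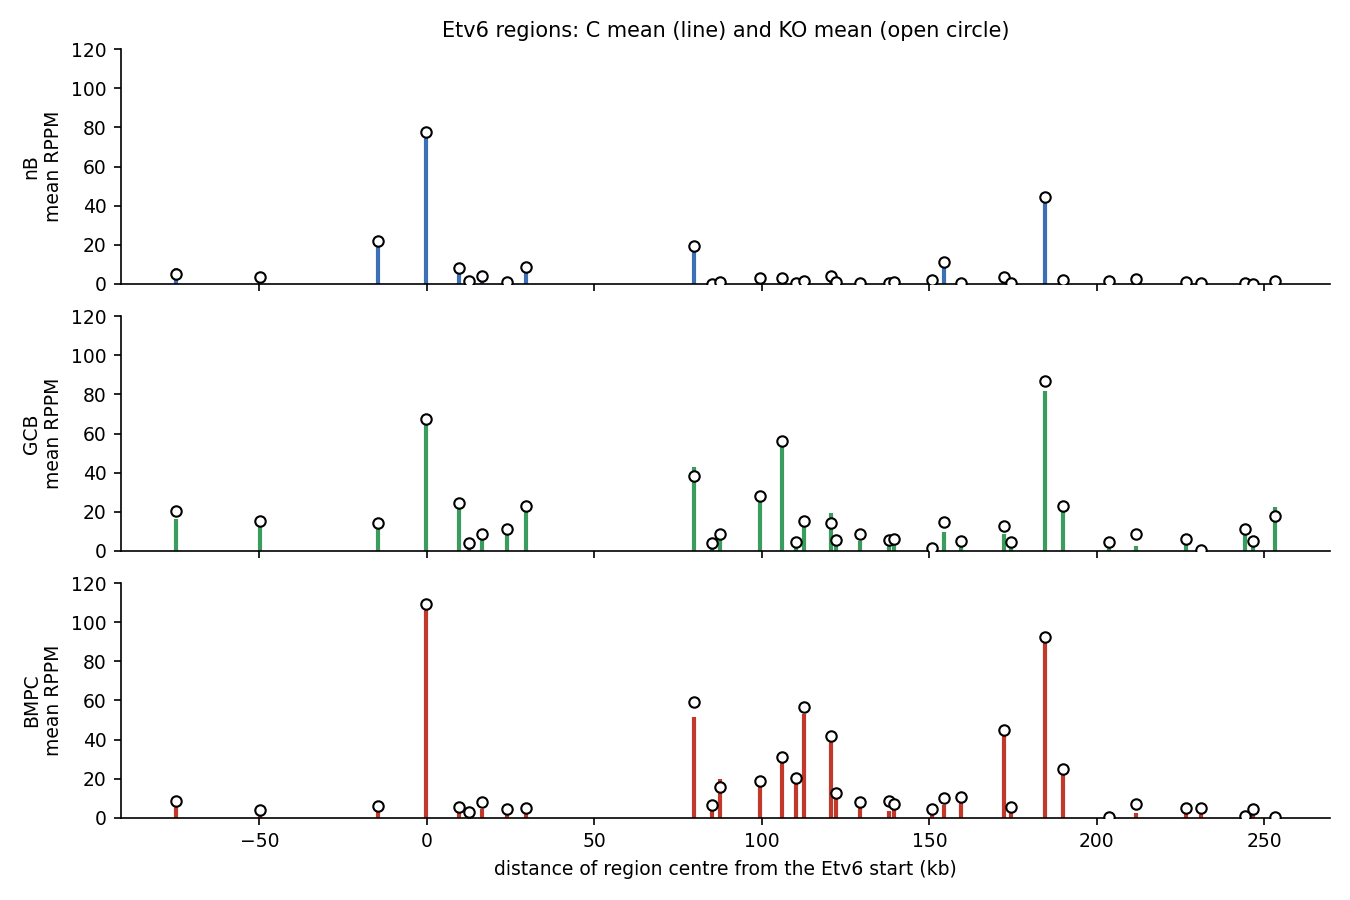
Mean RPPM of each of the 35 Etv6 regions (y axis) by distance in kb from the Etv6 start (x axis), in nB, GCB and BMPC; lines are C means and open circles KO means. The region at +106.0 kb rises from 2.92 to 5.65 RPPM in C nB to 52.5 and 58.1 in C GCB, and that at +253.2 kb is at 20.1 and 24.6 RPPM in C GCB and at most 1.86 in C nB and C BMPC.

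The cell type differences recurred in KO mice. Of the 32 regions called in C GCB minus C nB, 29 (90.6%) were called in the same direction in KO, where 36 were called, so 80.6% of the KO calls were shared; over all regions these shares were 76.9% and 66.5%. For BMPC minus nB the shared calls were 48, or 85.7% of 56 in C and 92.3% of 52 in KO, against 79.9% and 86.3%. For BMPC minus GCB they were 32, or 80.0% of 40 in either genotype, against 77.7% and 73.9%. No region was called in opposite directions, and each region called in C had the same sign in KO in all 3 comparisons. In KO alone, 28 ETS gene regions were called higher and 8 lower in GCB than nB (22.4% and 6.4%), against 18.4% and 7.84% of all regions. In KO BMPC minus KO nB, 35 were higher and 17 lower (28% and 13.6%), against 18.4% and 16.9%. In KO BMPC minus KO GCB, 17 were higher and 23 lower (13.6% and 18.4%), against 12.1% and 19.9%; after quantile normalization this split was 24 higher and 21 lower.

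Between genotypes no ETS gene region was called by limma. In nB, 0 of 125 were called and 2 were higher and 2 lower in KO at an unadjusted p under 0.05, where 0% of all regions were called and 1.67% had such a p. In GCB, 0 were called and 9 were higher and 11 lower at that p, against 0.0317% called and 11.8% over all regions. In BMPC, 0 were called and 11 were higher and 4 lower, against 0.104% called and 9.55%. edgeR and DESeq2 on recovered reads also called 0 in nB and GCB. In BMPC edgeR's quasi-likelihood test called 3 and its likelihood ratio test 4, against 1.81% and 2.53% of all regions, and DESeq2 called 0. The interactions, that is, the KO minus C difference in BMPC or GCB less that in nB, gave 0 calls, with 5 and 8 regions at an unadjusted p under 0.05, against 0% called in either and 5.24% and 6.21% of all regions at that p.

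The 3 regions with the smallest adjusted p-values were at Spib and Etv6. Spib -1.1 kb, with 2.21, 3.83 and 2.65 RPPM in C BMPC and 5.59 and 8.59 in KO BMPC, differed by log2 1.05 ± 0.25 (adjusted p = 0.0471), and edgeR's quasi-likelihood test gave 1.21 with an adjusted p of 0.00449. The groups did not overlap, and in nB the same region was at 10.2, 17 and 13 RPPM in C and 11 and 11.4 in KO. Its interaction with cell type was log2 1.26 ± 0.36 (adjusted p = 0.437). Spib -2.4 kb differed between KO and C BMPC by log2 0.54 ± 0.14 (adjusted p = 0.0577), and Spib +6.4 kb by log2 0.71 ± 0.25 (adjusted p = 0.247). Summed over the 7 Spib regions, KO BMPC held 79.9 and 83.1 RPPM and C BMPC 63.2, 62.8 and 62.9, while KO and C overlapped in nB. With 3 against 2 libraries no sum was tested.

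Etv6 +211.8 kb (chr6:134197324-134197758, intronic, nearest to the start of Bcl2l14) had its highest values in KO GCB and KO BMPC. It held 1.71, 1.88 and 2.05 RPPM in C nB, 2.2 and 2.34 in C GCB and 2.86, 2.19 and 2.65 in C BMPC. Etv6 +211.8 kb in KO held 2.8 and 2.76 RPPM in KO nB, 8.81, 8.27, 6.14 and 10.5 in KO GCB and 6.07 and 8.21 in KO BMPC. All KO GCB and KO BMPC libraries were above every other library. The region was called in KO GCB minus KO nB (log2 1.30 ± 0.28, adjusted p = 0.000378) and KO BMPC minus KO nB (log2 1.1 ± 0.32, adjusted p = 0.00582), whereas in C it was at log2 0.19 ± 0.29 (adjusted p = 0.638) and log2 0.31 ± 0.26 (adjusted p = 0.339). The KO minus C difference itself was log2 1.51 ± 0.28 (adjusted p = 0.0196) in GCB and log2 1.18 ± 0.29 (adjusted p = 0.0522) in BMPC, and its interactions against nB were log2 1.11 ± 0.41 (adjusted p = 0.745) for GCB and log2 0.79 ± 0.42 (adjusted p = 1.0) for BMPC. The difference between genotypes missed the limit of 0.01 in both cell types, and the call in KO BMPC minus KO nB was lost when any 1 of those 4 libraries was left out (0.91 to 1.29). edgeR's quasi-likelihood test gave 1.36 with an adjusted p of 0.00157 in BMPC. A second intronic region, Etv6 +137.8 kb, with the PU.1 letters shown above, held 2.73, 3.47 and 4.2 RPPM in C BMPC and 7.9 and 9.71 in KO BMPC, with log2 1.14 ± 0.35 (adjusted p = 0.139). edgeR's quasi-likelihood test gave 1.26 with an adjusted p of 0.00315 for Etv6 +137.8 kb.

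At the other genes limma's adjusted p-values were at least 0.0987 in BMPC. The largest of the Ets1 differences in BMPC among the regions described was at -34.3 kb, with 4.42, 9.31 and 6.85 RPPM in C BMPC and 3.77 and 2.43 in KO BMPC, and was log2 -0.91 ± 0.31 (adjusted p = 0.22). edgeR's likelihood ratio test called Ets1 -34.3 kb, with -1.15 and an adjusted p of 0.00881, and its quasi-likelihood test did not. Ets1 -86.7 kb was at 8.97, 10.2 and 10.1 RPPM in C BMPC and 16.8 and 14.2 in KO BMPC, with log2 0.61 ± 0.17 (adjusted p = 0.0987). In both cases the groups did not overlap. For Fli1 the smallest p in BMPC was at +41.7 kb, with log2 -0.42 ± 0.24 (adjusted p = 0.671), and for Elf1 at +99.3 kb, with log2 0.87 ± 0.37 (adjusted p = 0.396). The promoter of Spi1 differed by log2 -0.22 ± 0.15 (adjusted p = 0.587) in GCB and log2 -0.09 ± 0.16 (adjusted p = 1.0) in BMPC. The median KO minus C log2 fold change in BMPC was 0.49 over the 7 Spib regions, 0.15 over Etv6, 0.09 over Ets1, 0.00 over Elf1, -0.10 over Fli1 and -0.01 over Spi1, and 0.03 over all regions.

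**Figure D5:**
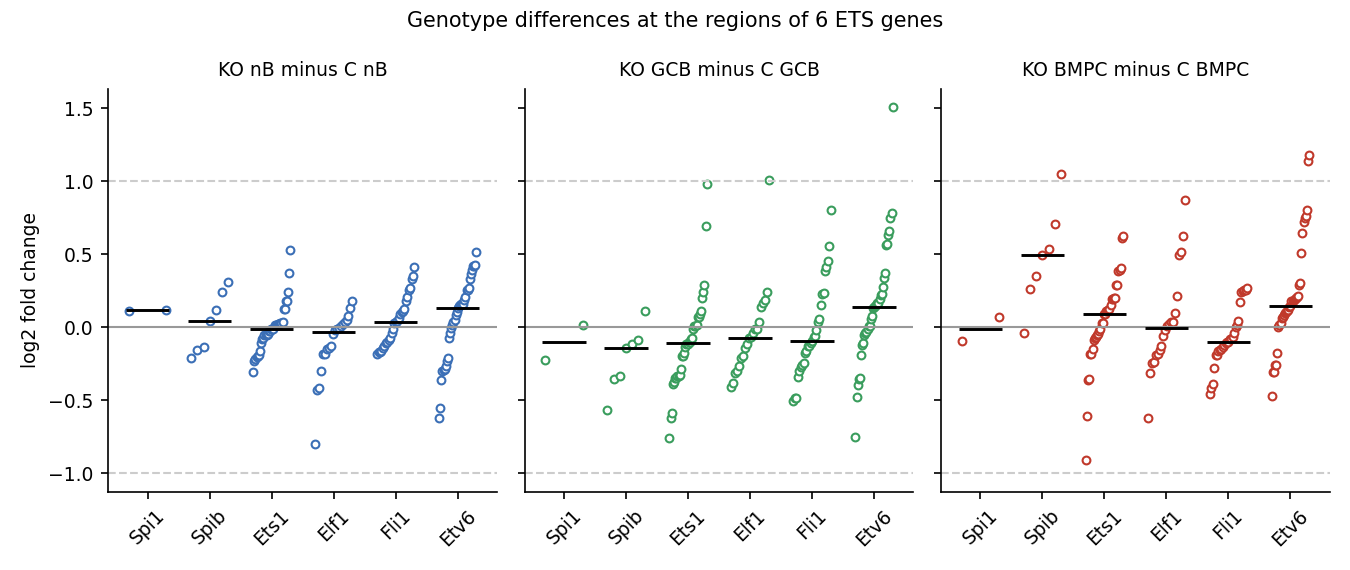
Log2 fold change of KO minus C in nB, GCB and BMPC (y axis) for every region of each gene (points), with the median as a bar; dashed lines mark 2-fold. None of the 125 regions passed limma's limits, and the Spib regions in BMPC have the highest median, 0.49.

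Other genes of the family and its partners were read from the same fit. The other ETS genes held 126 regions, of which 17 were called higher and 22 lower in C BMPC minus C nB (13.5% and 17.5%), both below the 18% and 20.1% of all regions. At Erg 5 of 7 regions and at Etv1 5 of 8 were called lower and none higher. For Erg, the region +98.5 kb from the start was at means of 27.7, 3.84 and 0.373 RPPM in C nB, GCB and BMPC. Spic, the remaining gene of the Spi subfamily, was at 6.49, 0.688 and 0.537 RPPM at its start. Elk4 +10.6 kb was at 1.45, 9.52 and 34.3 RPPM, and at Etv3 6 of 18 regions were called higher and 2 lower. The start of Gabpa, a broadly used family member, was at 132, 131 and 137 RPPM. One region of this list was called between genotypes, Ets2 +5.7 kb (chr16:95929695-95930205), with 0.65, 1.09 and 1.09 RPPM in C BMPC and 6.68 and 8.59 in KO BMPC, or log2 2.15 ± 0.37 with an adjusted p of 0.00507 by limma; this call was not recomputed under the alternatives.

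Partners and regulators held 171 regions, with 38 called higher and 49 lower in C BMPC minus C nB (22.2% and 28.7%), against 18% and 20.1% of all regions. Irf4, a partner of PU.1 and Spi-B that plasma cells require, had 6 of 18 regions called higher and 3 lower; its region 33.1 kb upstream was at means of 1.9, 4.47 and 39.1 RPPM in C nB, GCB and BMPC. Prdm1, whose product Blimp-1 represses Spib, had 11 of 33 called higher and 7 lower, with 1.52, 4.06 and 44 RPPM at +40.4 kb. Irf8 had 8 of 29 higher and 10 lower. Pax5, the factor of B cell identity that works with Ets1 at Cd79a, had 14 of 21 lower and 2 higher, with 40.3, 24.3 and 2.84 RPPM near its start. Runx1 had 10 of 31 lower and 1 higher.

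Known B cell targets of PU.1, Spi-B or Ets1 held 127 regions, and 55 of these were called lower in C BMPC minus C nB and 12 higher (43.3% and 9.45%), against 20.1% and 18% of all regions, with a median log2 fold change of -0.85. In KO BMPC minus KO nB, 46 were lower and 10 higher (36.2% and 7.87%), against 16.9% and 18.4%. Bank1, a scaffold of B cell receptor signalling, had 20 of 35 lower and 4 higher. Btk, the kinase of that pathway, had 3 of 6 lower, with means of 15.9, 10.2 and 0.685 RPPM in C nB, GCB and BMPC at +18.4 kb. The starts of Cd79a and Cd79b, the signalling chains of the receptor, were at 38, 27.9 and 14.3 RPPM and at 27.7, 19.2 and 9.04 RPPM. Syk had 3 of 16 regions higher and 3 lower. In C GCB minus C nB, 17 of the 127 were lower and 8 higher (13.4% and 6.30%), against 8.47% and 14.2%.

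Markers of other cells were summed over the region of each gene nearest its start. The 7 myeloid genes, all with a region, summed to 40.4 to 51.6 RPPM in nB, 67.3 to 88.1 in GCB and 26.8 to 33.4 in BMPC. Most of the GCB excess was at Csf3r, at 38.7 to 52.4 RPPM in GCB, in a region over 5 kb from its start. At its own start Cebpa held 6.29 to 11.0 RPPM in GCB, above the 3.54 to 5.51 in nB without overlap, and 3.36 to 6.37 in BMPC. Csf1r held 7.03 to 12.7 RPPM in GCB and 5.6 to 9.38 in nB, which overlap, and at most 3.90 in BMPC. Cebpe was highest in BMPC, at 10.4 to 13.6 RPPM against at most 8.81 in GCB and 2.98 in nB, and Elane held 2.34 to 8.40 RPPM over all libraries. In GCB Mpo was at most 2.2 RPPM and Itgam at most 2.63. Of 5 T cell genes, Cd3e and Cd4 had a region and Cd3g, Cd8a and Thy1 none; the sums were 2.63 to 4.90, 9.79 to 12.8 and 10.6 to 19.2 RPPM in the same order. These 2 genes went opposite ways: Cd4, in a region over 5 kb from its start, held 0.658 to 1.18, 8.39 to 12.1 and 9.96 to 18.6 RPPM, and Cd3e 1.97 to 4.14, 0 to 2.2 and 0.156 to 0.910. Of 4 erythroid and megakaryocyte genes, Gata1 had no region, and the other 3 summed to 54.1 to 69.6, 43 to 57.4 and 75.4 to 88.9 RPPM. Klf1 was lowest in GCB, with 40.7 to 55.3, 27.7 to 39.8 and 56.9 to 66.8 RPPM, whereas Itga2b held 10.4 to 13.5, 12.6 to 18.4 and 17.0 to 20.9 and Gp9 0.188 to 1.30, 0 to 1.91 and 1.46 to 3.40. Thus Cd4 alone of its list was higher in both later cell types, like Etv6, and Klf1 alone of its list was lowest in GCB and highest in BMPC, like Fli1 and Elf1. By C means, Cebpa, Cebpe, Itga2b and Gp9 were also higher in both later cell types than in nB. The C means of Cd3e, Itgam, Csf1r and Mpo were lower in both. For Csf1r in GCB the C gap was small, 7.25 against 7.67 RPPM in nB. Its KO means went the other way, 11.8 RPPM in KO GCB against 8.03 in KO nB. The part of such cells in these differences was not tested. Read depth also moved with cell type, GCB having the fewest reads and 7.43 to 10.1% of reads in regions on the mitochondrial genome against 2.56 to 4.59% in the others; its part was not tested either.

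The regions at gene starts whose pattern was most like that of each ETS start were found by Pearson's r of log2(RPPM + 1) over the 16 libraries. They were sought among 11088 to 11090 promoter regions at the starts of other genes. The libraries share their cell types and depths. For the Spib region nearest its start, the intronic one at +0.6 kb, they were Nucb2 (r = 0.966), Inadl (r = 0.951) and Ms4a1, which encodes CD20 (r = 0.948). For Spi1 they were Prmt3 (r = 0.864), Rnf41 (r = 0.850) and Nsa2 (r = 0.835). For Ets1 the values ran from 0.972 to 0.978 (Colgalt1, Rps27 and Unk), for Elf1 from 0.977 to 0.983 (Sppl3, Fam53a and Sbno1), for Fli1 from 0.965 to 0.971 (Emc10, Mir22hg and Hnrnpab) and for Etv6 from 0.960 to 0.967 (Atxn1, Rpl36al and Nyap1). The Spi1 start had the lowest r values of the 6. It also varied least over the 16 libraries, with a log2 range of 0.744 against 0.874 to 2.04 at the others.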

How the data were processed

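ATAC-seq values of 16 libraries in 6 groups were taken from a deposited table of 66177 regions. Per the labels and the methods of the study, reads were mapped to mm9 with Bowtie, and MACS2 called peaks at a q of 0.01, whose union gave the regions; the processing notes also name Picard 1.127 and edgeR 3.12.1. The deposited values are RPPM (RPM over reads in regions, computed by the authors). Whole reads were recovered from 100% of them, within 0.001 of a read. The authors' fold change, p-value and FDR columns were not used. As RPPM are not counts, limma 3.58.1 (R 4.3.3, with trend) was fitted to log2(RPPM + 1) with 1 mean for each group, and p-values were adjusted over all regions. The limits were 0.01 on the adjusted p and 1 on the log2 scale. A library came from 1 mouse, or from a pool of 2 for GCB.

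Alternatives were pseudocounts of 0.1 and 5 RPPM, a mean of at least 1 RPPM, TMM and quantile scaling, the compared groups only, an adjusted p of 0.05, edgeR 4.0.16 and DESeq2 1.42.0 on recovered reads, each library left out, and a block on the GCB pools. The fits were tested on simulated data for KO BMPC minus C BMPC only, with 200 changed regions of a mean above 5 RPPM. That test does not cover the other comparisons or weaker regions.

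Described were, for each gene, the region nearest its start, those with the largest called gain and loss in each comparison of C cell types, the one with the smallest p in KO BMPC minus C BMPC and the one with the most signal per kb, and every Spi1 and Spib region. Etv6 +137.8 kb was added after its values were seen. The genes and lists were chosen with earlier results of these data known. Consensus letters came from the study's motif list and sequences from the mm9 genome. One marker of the sorts and one detail of the genotype are not reported here.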

Additional observations from a re-analysis of the deposited data

Results flagged for a closer look

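One library stood apart in a group of 4. At Etv6 +112.4 kb, KO GCB replicate F1 held 22.0 RPPM and the other 3 KO GCB libraries 12.7 to 13.6, so that its gap to the nearest of them was 0.907 of the range, above Dixon's 95% limit for 4 samples. F1 is the shallowest of the 16 libraries, with 907959 reads in regions. The test was made at 37 regions in this group, and chance alone flags about 1 in 20. The call of this region in KO GCB minus KO nB does not rest on F1, since the other 3 libraries were also far above the KO nB values of 0.987 and 1.97 RPPM.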

How the results depend on the processing

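Of the 178 alternative totals of ETS gene regions called, 167 stayed within 1.5 times the reported one. A pseudocount of 5 RPPM lowered them to 19 for C GCB minus C nB, 31 for C BMPC minus C nB, 22 for C BMPC minus C GCB, 19 for KO GCB minus KO nB, 32 for KO BMPC minus KO nB and 18 for KO BMPC minus KO GCB; a larger pseudocount shrinks the fold changes of low regions. Between genotypes, an adjusted p of 0.05 gave 1 call in GCB (Etv6 +211.8 kb) and 1 in BMPC (Spib -1.1 kb), edgeR's quasi-likelihood test gave 3 in BMPC and its likelihood ratio test 4; the cause was not tested. Leaving out each library in turn gave 27 to 31 calls for C GCB minus C nB, 50 to 57 for C BMPC minus C nB, 36 to 39 for C BMPC minus C GCB, 34 to 39 for KO GCB minus KO nB, 45 to 46 for KO BMPC minus KO nB, 29 to 42 for KO BMPC minus KO GCB and 0 between genotypes. With the GCB pool names as a replicate block, KO GCB minus C GCB had 1 call, Etv6 +211.8 kb (log2 1.66, adjusted p = 0.00508). Whether the names F2 and M1 pair the libraries could not be decided. Deviations from the group means correlated at 0.0363 and 0.0638. The 2 C GCB libraries have mirrored deviations, so these correlations cannot tell. Of 1559 alternative log2 fold changes of the regions described, 1483 stayed on their side of the limits, 70 lost the call (30 with the pseudocount of 5 RPPM), 5 gained it and 1 changed sign: the Spi1 promoter in KO BMPC minus C BMPC, which was never called, was 0.020 without KO BMPC replicate 2 and -0.21 without replicate 1. Quantile normalization moved the share of higher calls over all regions from 62.7 to 51.3% in C GCB minus C nB, 70.2 to 50.7% in KO GCB minus KO nB, 37.2 to 49.3% in C BMPC minus C GCB and 37.9 to 49.8% in KO BMPC minus KO GCB, and the median of all regions in KO GCB minus KO nB from 0.124 to -0.0671. The interactions were not fitted with the compared groups only.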

Other observations

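The neighbourhood of Spi1 was read further, after its values were seen. The 2 regions within 20 kb upstream of the Spi1 start are annotated to the next gene, Slc39a13, and so were not counted with Spi1. The one 18.3 kb upstream (chr2:90918287-90918960) held 31.2, 26 and 27.9 RPPM in C nB, 12.3 and 15 in C GCB and 12.5, 9.31 and 13.2 in C BMPC. Naive B cells were above both later cell types without overlap. limma called it lower in C GCB minus C nB (-1.01 ± 0.21, adjusted p = 0.000347) and in C BMPC minus C nB (-1.22 ± 0.19, adjusted p = 3.09e-06). In KO it held 30.1 and 25.8 RPPM in nB, 23.1, 15.3, 15.8 and 17.5 in GCB and 14.9 and 9.71 in BMPC, and was called in KO BMPC minus KO nB (-1.14 ± 0.23, adjusted p = 0.000159) but not in KO GCB minus KO nB (-0.63 ± 0.20, adjusted p = 0.0109). The one 13.7 kb upstream (chr2:90922970-90923637) held 27.8, 27.5 and 28.3 RPPM in C nB, 16.3 and 30.4 in C GCB and 19.9, 21.7 and 24.8 in C BMPC, and was not called in either comparison with nB. These calls were not recomputed under the alternatives.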
